A study of Mus musculus with 8 samples.

Results

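The genes of the proteasome were examined in RNA bound to tagged ribosomes of UCP1-positive fat cells from 3 fat depots of cold-exposed mice. All genes whose symbol began with Psma, Psmb, Psmc, Psmd, Psme, Psmf or Psmg were taken, which gave 49 of the 22552 genes in the deposited files. They comprised 7 genes of the alpha ring, 7 constitutive genes of the beta ring, 3 immunoproteasome genes, 6 base ATPases, 11 other genes of the regulatory particle, 7 assembly factors, 5 activators or inhibitors, 2 tissue-specific forms and 1 gene, Psmc3ip, that shares the prefix but codes for a meiotic recombination protein. Of the 49, 46 passed the filter on low values and were tested. The 3 left out were Psma8, Psmb11 and Psmc3ip.

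The mice were C57B/6 UCP1-TRAP females, in which a GFP-tagged ribosomal protein is made under control of Ucp1, so that an antibody against GFP recovers RNA in translation in cells that use that gene. They were bred at 30 °C, moved to room temperature when weaned at 3 weeks, kept at 4 °C from 4 weeks of age for 2 weeks and used at 6 weeks. There were 3 libraries of inguinal white adipose tissue (WAT), 2 of perigonadal WAT and 3 of interscapular brown adipose tissue (BAT), with the same genotype, sex and cold exposure in each group. Nothing in the labels ties a library to an animal of its own, so p-values reflect only how far these samples spread, and that spread may be technical. No library of unbound RNA and none from warm mice was used here, so the comparisons are between depots and not with or without cold.

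The proteasome is the large protease that degrades proteins marked with ubiquitin. Its barrel-shaped core particle, the 20S, has outer alpha rings that gate the entrance and inner beta rings that carry the active sites, and the regulatory particle, the 19S, binds ubiquitin, removes it and uses ATP to thread the substrate in. Inflammatory signals such as interferon can replace the catalytic beta subunits with those of the immunoproteasome, which favour peptides for antigen presentation. In brown fat, the transcription factor NFE2L1 is known to raise proteasome genes during cold exposure, through antioxidant response elements in their promoters.

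The promoters of the members were searched for that element and are shown first because it is the one named above. RefSeq promoters on GRCm38.p6, from 250 bases before to 50 bases after the gene start, were at hand for 41 of the 49 members. Not matched were Psma8, Psmb1, Psmb2, Psmb7, Psmc3, Psmd3, Psmd7 and Psmg2. The core TGANNNNGC, searched on both strands, stood in 24 of the 41 (58.5%), against 45.0% of all 27025 genes with a promoter. The stricter TGACNNNGC, every match of which is also a match of the core, stood in 6 of the 41 (14.6%), against 14.0% of all genes. These 6 sites are printed below in the motif's own direction, with up to 12 flanking bases on each side and the motif in capitals.
Psmb5: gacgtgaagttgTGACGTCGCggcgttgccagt
Psmb6: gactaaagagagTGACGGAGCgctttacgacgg
Psmc6: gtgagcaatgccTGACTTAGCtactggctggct
Psmd9: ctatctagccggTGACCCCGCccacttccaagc
Psmd12: ggggggcaaatgTGACACAGCaga
Psme4: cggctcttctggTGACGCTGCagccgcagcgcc

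The sites lay on GRCm38.p6 at chr14:54618022-54618054 for Psmb5, chr11:70525336-70525368 for Psmb6, chr14:45329585-45329617 for Psmc6, chr5:123228147-123228179 for Psmd9, chr11:107479278-107479301 for Psmd12 and chr11:30771756-30771788 for Psme4. The motif's first base lay 47 bases before the start of Psmb5, 9 before that of Psmb6 and 31 before that of Psmd9, reading along the gene. In Psme4, Psmc6 and Psmd12 the motif lies on the opposite strand. Its copy on the gene's strand begins 7 bases before the start of Psme4, 227 before that of Psmc6 and 247 before that of Psmd12. A match describes the letters in this window and does not show binding.

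The promoters of a constitutive catalytic subunit, of its inducible counterpart and of the assembly factor Psmg1 are given whole. The levels of the first pair are compared below. Psmg1 was the 1 of 46 members called lower in perigonadal WAT than in BAT after median-ratio scaling, against 3.49% of all genes. Psmb5 codes for the constitutive chymotrypsin-like site (chr14:54617946-54618245, minus strand), Psmb8 for the subunit that replaces it in the immunoproteasome (chr17:34197945-34198244, plus strand), and Psmg1 for a chaperone that helps to build the alpha ring (chr16:95990911-95991210, minus strand). Capitals mark matches to TGANNNNGC or to TTCNNNGAA, the STAT site, on either strand, and in Psmg1 the 2 motifs overlap.
Psmb5: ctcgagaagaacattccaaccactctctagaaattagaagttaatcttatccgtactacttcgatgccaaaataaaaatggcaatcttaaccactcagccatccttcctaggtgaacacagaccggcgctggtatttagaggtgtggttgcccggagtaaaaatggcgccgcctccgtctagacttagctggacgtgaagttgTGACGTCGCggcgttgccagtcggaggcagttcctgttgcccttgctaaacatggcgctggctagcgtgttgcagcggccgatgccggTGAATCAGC
Psmb8: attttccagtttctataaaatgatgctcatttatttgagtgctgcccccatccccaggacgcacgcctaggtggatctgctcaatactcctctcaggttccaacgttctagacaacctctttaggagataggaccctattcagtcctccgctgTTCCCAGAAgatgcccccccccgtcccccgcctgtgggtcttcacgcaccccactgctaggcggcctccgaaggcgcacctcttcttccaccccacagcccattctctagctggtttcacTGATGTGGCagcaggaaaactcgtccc
Psmg1: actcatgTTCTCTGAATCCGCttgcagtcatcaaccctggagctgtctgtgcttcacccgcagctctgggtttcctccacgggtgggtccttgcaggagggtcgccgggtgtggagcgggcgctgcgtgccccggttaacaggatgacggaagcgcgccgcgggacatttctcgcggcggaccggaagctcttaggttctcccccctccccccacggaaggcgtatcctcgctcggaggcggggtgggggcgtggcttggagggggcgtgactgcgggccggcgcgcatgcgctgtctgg

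TTCNNNGAA stood in 3 of the 41 promoters (7.32%), those of Psmb8, Psmd2 and Psmg1, against 9.55% of all genes. The interferon-stimulated response element stood in 5 of the 41 (12.2%), those of Psmb3, Psmd4, Psmd9, Psme1 and Psmg4, against 3.99% of all genes, and had no match in the windows of Psmb8, Psmb9 and Psmb10. CCAAT, the motif of NF-Y, stood in 15 of the 41 (36.6%), against 41.1% of all genes.

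The libraries held an estimated 238913 (inguinal replicate 3) to 1072338 (perigonadal replicate 1) fragments on the listed genes, of which 1256 to 4391 per library fell on the 49 members. FPKM, a count of fragments set against transcript length and library depth, summed over all genes to between 75925 and 206549 per library, so libraries differ in overall level, and each difference below is given on the deposited values and after median-ratio scaling, which divides each library by its typical ratio to the others (factors from 0.545 in inguinal replicate 3 to 1.83 in perigonadal replicate 1). Ucp1 was high in all libraries (592 to 1593 FPKM). Mammary epithelial markers, in contrast, summed to 84.0 to 109.5 FPKM in the inguinal libraries against 1.75 to 2.73 in the perigonadal and 7.02 to 22.0 in the BAT libraries, where 5 of the 6 (Krt8, Krt18, Krt5, Krt14 and Expi) were listed at 0, and the part of these other cells in the inguinal values was not tested. In such bulk RNA, fewer cells and less RNA per cell cannot be told apart.

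Proteasome genes were read in UCP1-positive cells of all 3 depots at a summed level of less than 1% of all listed FPKM. Together the 49 members made up 0.810, 0.722 and 0.854% of the listed FPKM in the inguinal libraries, 0.678 and 0.705% in the perigonadal libraries and 0.754, 0.625 and 0.746% in the BAT libraries. The ranges of inguinal WAT and BAT overlapped, as did those of perigonadal WAT and BAT. Both perigonadal libraries lay below all 3 inguinal libraries.

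**Figure D1:**
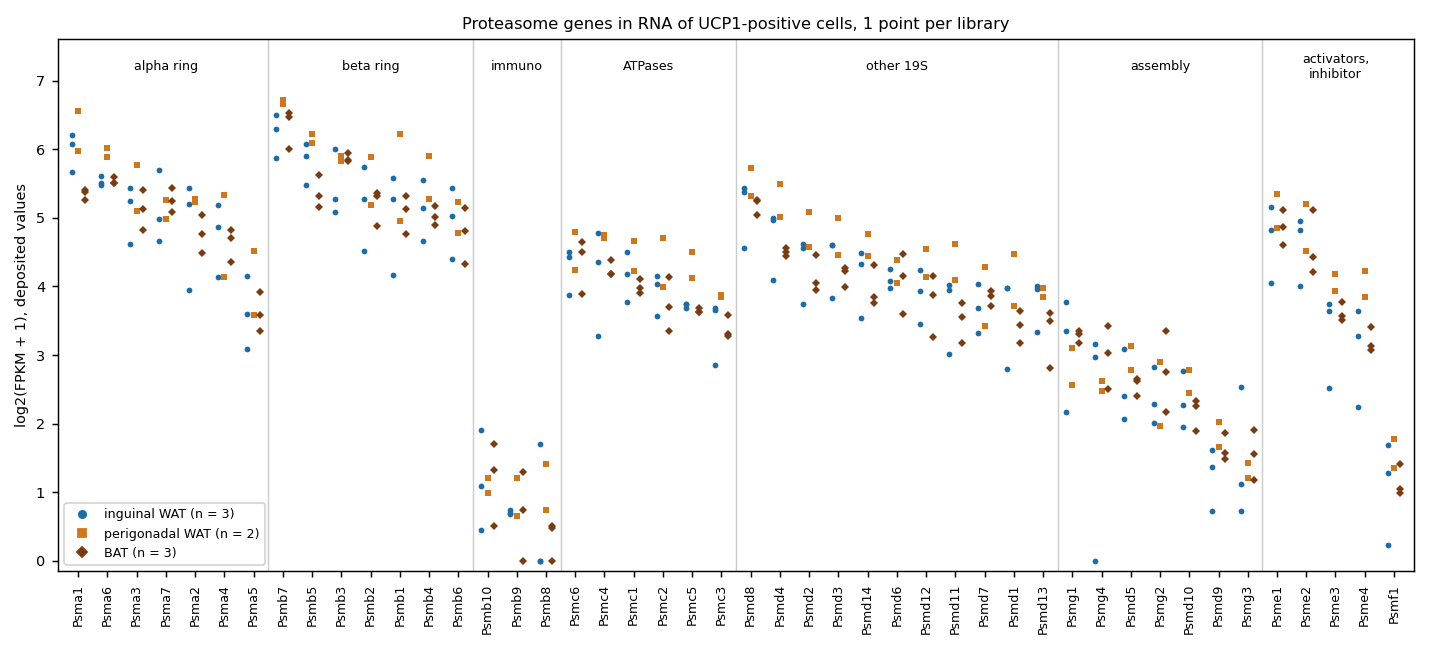
Level of each of the 46 tested proteasome genes as log2(FPKM + 1) of the deposited values (vertical axis), by gene and class (horizontal axis), with 1 point per library for inguinal WAT (n = 3), perigonadal WAT (n = 2) and BAT (n = 3). Most core subunits, but not Psma5, lie above most subunits of the regulatory particle. The assembly factors lie lower, and the 3 immunoproteasome genes lie low in every depot, at 0 to 2.75 FPKM.

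The subunits of the complex stood in nearly the same order in every library. Psmb7, which carries the trypsin-like site, was the highest of the 31 constitutive core and regulatory genes in all 8 libraries. Its level was 89.8, 77.5 and 57.7 FPKM in inguinal WAT, 104 and 99.6 in perigonadal WAT and 87.4, 63.4 and 91.0 in BAT, so the BAT values lay among those of the other depots. The rank correlation of the 31 levels between libraries was 0.906 to 0.933 (Spearman's rho, 7 pairs of libraries within a depot) and 0.866 to 0.948 (21 pairs between depots), and the points share gene length and base composition. The range between depots took in the range within them.

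By their medians, core subunits had higher levels than subunits of the regulatory particle. Single genes departed from this, such as the core gene Psma5 (mean 12.8 FPKM) and the regulatory gene Psmd8 (37.8). The median core gene stood at 2.19 to 2.62 times the median regulatory gene in the inguinal libraries, at 2.23 and 2.35 times in the perigonadal and at 2.35 to 2.66 times in the BAT libraries. The levels are per length, but core transcripts are also shorter: across the 31 genes, mean FPKM and transcript length had a Spearman's rho of -0.71, against -0.31 within the 14 core genes and -0.24 within the 17 regulatory genes. The part of transcript length in this difference was not tested.

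In the alpha ring, mean FPKM over all libraries ran from 12.8 for Psma5 to 57.9 for Psma1. Psma1, an outer-ring subunit, had 72.5, 66.7 and 49.6 FPKM in inguinal WAT, 93.4 and 62.0 in perigonadal WAT and 41.3, 40.7 and 37.3 in BAT. All 5 WAT libraries lay above all 3 BAT libraries. As deposited, inguinal libraries did so for 6.81% of all tested genes and perigonadal libraries for 48.3%. After scaling, the perigonadal log2 difference of Psma1 from BAT was 0.25 (adjusted p = 0.579, limma), still without overlap. Psma6 was next (43.5 to 64.1 FPKM over the 8 libraries). As deposited, its perigonadal libraries, at 64.1 and 58.0, lay above its BAT libraries, at 44.7, 44.7 and 47.4. The same held for 48.3% of all tested genes, and after scaling these groups overlapped. Psma4 (16.6 to 39.3) and Psma5 (7.49 to 21.9) were lowest, and for both of these the groups overlapped between WAT and BAT as deposited.

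In the beta ring, Psmb5 had 58.8, 66.5 and 43.6 FPKM in inguinal WAT, 73.8 and 67.4 in perigonadal WAT and 38.7, 34.6 and 48.6 in BAT. As deposited, the perigonadal libraries lay above both other groups, and inguinal replicate 3 lay within the BAT range. Of all tested genes, 48.3% lay above BAT and 27.5% above inguinal WAT in this way. After scaling, the perigonadal libraries of Psmb5 overlapped both other groups. Psmb6, the caspase-like site, had 42.2, 31.5 and 20.1 FPKM in inguinal WAT, 36.6 and 26.5 in perigonadal WAT and 18.99, 27.1 and 34.2 in BAT, with overlap of all groups. Psmb4, a structural subunit, ranged from 24.2 to 58.9 FPKM, and Psmb3, another structural subunit, from 33.0 to 63.0.

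Of the base ATPases, which form the ring that unfolds substrates, Psmc6 (13.7 to 26.7 FPKM) and Psmc4 (8.72 to 26.5) were highest and Psmc5 (11.3 to 21.7) and Psmc3 (6.20 to 13.7) lowest. Of the other regulatory genes, Psmd8, a lid subunit, was highest (22.7 to 51.7 FPKM), followed by Psmd4, a ubiquitin receptor (16.0 to 44.2). Psmd1, a large scaffold of the base (5.94 to 21.3), and Psmd13, a lid subunit (6.02 to 15.1), were lowest. On the deposited values both perigonadal libraries lay above all 3 BAT libraries for 7 of these 8 genes, all but Psmc6, against 48.3% of all tested genes in the same direction. After scaling, this held for none of the 8, against 19.9% of all tested genes.

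The immunoproteasome genes were close to the limit of detection in every depot. Psmb8, the inducible counterpart of Psmb5, was listed at 2.26, 0 and 0 FPKM in inguinal WAT, at 1.65 and 0.678 in perigonadal WAT and at 0, 0.395 and 0.416 in BAT. These values rest on 6, 8 and 2 fragments per group, with exact Poisson 95% intervals of 2.20 to 13.1, 3.45 to 15.8 and 0.242 to 7.22 fragments, which cover counting error only. A library without a fragment allows up to 1.14 to 1.28 FPKM (3 fragments), so the zeros do not show absence. On these few fragments, both perigonadal values of Psmb8 lay above all 3 BAT values, as deposited and after scaling. The same held for 48.3% of all tested genes as deposited and for 19.9% after scaling.

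Psmb9, the counterpart of Psmb6, was listed at 0.599, 0.619 and 0.668 FPKM in inguinal WAT, at 1.32 and 0.569 in perigonadal WAT and at 1.45, 0 and 0.668 in BAT, on 3, 4 and 3 fragments per group. Psmb10, the counterpart of Psmb7, had 2.75, 0.365 and 1.14 FPKM in inguinal WAT, 1.31 and 0.996 in perigonadal WAT and 0.429, 1.50 and 2.25 in BAT, on 12, 8 and 11 fragments. For both genes the BAT range took in values of both WAT depots, and a difference between depots was not detectable at this depth.

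Within a library, the ratio of inducible to constitutive catalytic subunits does not depend on scaling. Psmb8, Psmb9 and Psmb10 together came to 2.94, 0.561 and 1.49% of the summed FPKM of Psmb5, Psmb6 and Psmb7 in inguinal WAT, to 1.99 and 1.16% in perigonadal WAT and to 1.29, 1.52 and 1.92% in BAT. The group means were 1.66 ± 1.20% (SD, n = 3), 1.58 ± 0.589% (SD, n = 2) and 1.58 ± 0.316% (SD, n = 3), and the groups overlapped. The constitutive sum was 34.0 to 178 times the inducible sum, and the 178 rests on 2 inducible fragments. Pair by pair, the inducible gene came to at most 7.62% of its counterpart, for Psmb9 in BAT replicate 1, also on 2 fragments. No test was made on the ratio, since 16 to 21 inducible fragments per group carry it. Leaving out inguinal replicate 1, which holds 15 of the 21 inguinal fragments, lowers the inguinal mean to 1.03%.

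**Figure D2:**
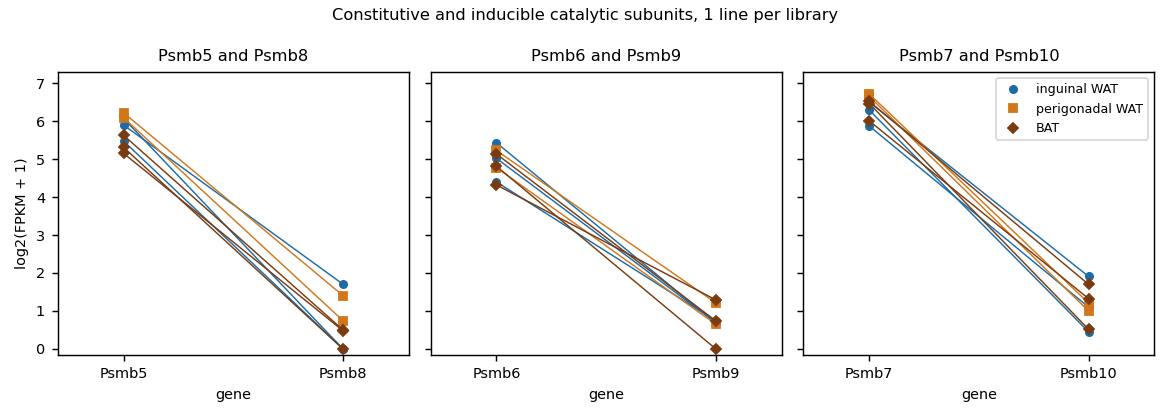
Deposited level as log2(FPKM + 1) (vertical axis) of each constitutive catalytic subunit and of the inducible subunit that replaces it (horizontal axis), with 1 line per library coloured by depot. In all 8 libraries each line falls steeply from the constitutive subunit, at 18.99 to 104 FPKM, to the inducible one, at 0 to 2.75 FPKM.

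Leukocytes express the immunoproteasome constitutively, and their markers were low too. The 4 general leukocyte markers summed to 1.84 to 5.13 FPKM in inguinal WAT, 0.903 to 2.68 in perigonadal WAT and 0.299 to 1.43 in BAT, where Ptprc and Cd53 were listed at 0 in all 3 libraries. The 7 macrophage markers present summed to 3.94 to 5.80, 6.26 to 12.1 and 3.66 to 6.96 FPKM. Of these, Cd14 was higher in inguinal WAT, at 3.51, 2.15 and 0.750 FPKM against 0, 0.375 and 0 in BAT (log2 difference 1.39, adjusted p = 0.0234, limma). In that comparison 2.2% of all tested genes were called in either direction. Mean Cd163 also lay higher in inguinal WAT (0.529 against 0.131 FPKM), and Csf1r was level (0.134 against 0.130). Means of Lyz2 (2.25 against 3.65 FPKM), Mrc1 (0.0807 against 0.247), Emr1 (0 against 0.153) and Cd68 (0 against 0.642) lay lower. The 5 T cell markers summed to at most 1.59 FPKM in any library, and the 4 B cell markers to 0, 1.34 and 2.28 FPKM in inguinal WAT and 0 in every other library. Their part in the inducible subunits was not tested.

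Of the other genes of antigen presentation, 3 class I genes were higher in WAT than in BAT. B2m, the light chain of class I molecules, had 123, 132 and 43.8 FPKM in inguinal WAT, 193 and 149 in perigonadal WAT and 36.8, 33.7 and 35.5 in BAT, without overlap between either WAT depot and BAT. It was higher in inguinal WAT by a log2 difference of 1.32 (adjusted p = 0.0467) and in perigonadal WAT by 2.23 (adjusted p = 0.000203, both limma). H2-D1 and H2-K1, class I heavy chains, were higher in perigonadal WAT than in BAT (log2 differences 1.84 and 1.50, adjusted p = 0.0061 and 0.0286), and after scaling all 3 genes passed in both WAT depots. In those scaled comparisons with BAT, 4.62% (inguinal) and 6.11% (perigonadal) of all tested genes were called in either direction. On the deposited values, 1 of 11 tested genes of the list was called higher in inguinal WAT and 3 of 11 in perigonadal WAT (against 2.2% and 5.18% of all tested genes in either direction), none was called lower, and the peptide transporter gene Tap1 (0 to 2.02 FPKM) did not pass. Markers of other cells lay above BAT in some sums and overlapped it in others. The 4 endothelial markers summed to 1.84 and 6.34 FPKM in perigonadal WAT against 0.968 to 1.25 in BAT, without overlap. In inguinal WAT they summed to 0.658 to 2.19, with overlap. The leukocyte sums and Cd14 of inguinal WAT, given above, lay above those of BAT. The perigonadal leukocyte sums and the macrophage sums of both WAT depots, also given above, overlapped those of BAT. Their part in the class I genes was not tested. H2-D1 and H2-K1 are near-identical in part, so their split is uncertain, and whether these genes differ between depots otherwise than Psmb8 to Psmb10 do was not tested.

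Between inguinal WAT and BAT, no proteasome gene passed the test on the deposited or the median-ratio scaled values. With limma on the deposited values, 0 of 46 members were called at an adjusted p of 0.05, against 2.2% of all 8958 genes tested, and 1 member (Psmg4, lower) had an unadjusted p under 0.05, against 8.53% of all genes. Without overlap, 1 member was higher and 0 lower as deposited, against 6.81% and 5.37% of all genes. The median log2 difference of the members was -0.00, beside 0.03 for all genes. After scaling, 0 of 46 were called again, against 4.62% of all genes, with 2 at an unadjusted p under 0.05, against 19.7%, and the median was -0.01 beside 0.01. Only 2 of the 46 members changed sign with the scaling.

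For the core and regulatory genes, which lie well above the pseudocount, the scaled 95% intervals, not adjusted for the number of genes, describe the size of the differences. Like the p-values, these intervals rest on a spread that may be technical, and they hold for this scaling only. They lay within a 2-fold change in either direction for 13 of the 14 constitutive core genes and 16 of the 17 regulatory genes. For the inducible and assembly genes, whose low values make the log2(FPKM + 1) difference too small, they bound no fold change. For Psmb7 the scaled log2 difference was -0.12 (95% interval -0.64 to 0.40), for Psmb6 0.19 (-0.32 to 0.69) and for Psmb5 0.45 (-0.07 to 0.96). For these 3 genes the interval took in 0.

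Psma1 came closest to the threshold among the subunits. Its scaled levels were 59.7, 58.7 and 91.1 FPKM in inguinal WAT against 44.6, 45.1 and 42.1 in BAT, and the groups did not overlap. The scaled log2 difference was 0.63 ± 0.19 (SE, adjusted p = 0.0972, limma), and on the deposited values 0.63 ± 0.38 (adjusted p = 0.759). Under quantile normalization it was called higher (0.74, adjusted p = 0.0372, limma), against 3.17% of all genes called higher. It was the 1 member with no overlap and higher in inguinal WAT, against 13.2% of all genes after scaling, while 3 members, Psmb3, Psmd9 and Psme3, had no overlap and were lower, against 11.8%. As a share of the summed FPKM of the 31 constitutive core and regulatory genes, a measure chosen after the values were seen, Psma1 held 6.92, 7.39 and 8.39% in inguinal WAT, 7.50 and 6.64% in perigonadal WAT and 4.89, 5.71 and 4.60% in BAT, so all 5 WAT libraries lay above the BAT libraries.

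The next differences did not pass either. Psmd13 had 14.6, 15.1 and 9.08 FPKM in inguinal WAT and 11.2, 6.02 and 10.3 in BAT, with overlap (log2 difference 0.46). Psmg4, an assembly chaperone, had 7.93, 6.84 and 0 FPKM in inguinal WAT against 9.70, 4.67 and 7.15 in BAT (log2 difference -0.94, adjusted p = 0.565, limma), and its inguinal fragments numbered 5.2, 4.0 and 0. One of its inguinal libraries thus held no fragment.

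The perigonadal comparison depended on how libraries were scaled. With limma on the deposited values, 0 of 46 members were called against 5.18% of all genes, and 1 (Psma1, higher) had an unadjusted p under 0.05, against 21.5% of all genes. The median log2 difference of the members was 0.42, beside 0.52 for all genes, and 39 of 46 were positive. After scaling, the median was -0.19, beside 0.02 for all genes, 37 of 46 were negative, and 30 of the 46 had changed sign. Beside all genes, the members' median was the lower one on both scales, which was not tested. Without overlap, 23 members were higher and 1 lower on the deposited values (48.3% and 3.72% of all genes), and 2 were higher and 12 lower after scaling (19.9% and 19.6%).

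After scaling, 1 of 46 members, Psmg1, was called lower in perigonadal WAT, against 3.49% of all genes lower and 6.11% in either direction. Psmg1 had 7.63 and 4.93 FPKM in perigonadal WAT and 8.01, 8.86 and 9.18 in BAT as deposited, without overlap, on 20 and 10 fragments against 13, 16 and 16. Scaled, it had 4.16 and 4.28 against 8.64, 9.82 and 10.4, and the inguinal libraries, at 10.4, 8.07 and 6.46, lay above both perigonadal libraries. The scaled log2 difference was -1.02 ± 0.22 (SE, adjusted p = 0.0241, limma), with both perigonadal libraries below all BAT libraries, whereas the deposited one was -0.43 ± 0.46 (adjusted p = 0.55). The call did not hold when perigonadal replicate 1 or 2, or BAT replicate 1, 2 or 3, was left out (adjusted p = 0.179, 0.0895, 0.0514, 0.0639 and 0.0641), while the log2 difference stayed between -0.98 and -1.09. Quantile normalization also called it lower, against 2.55% of all genes called lower. Psmg1 spans chr16:96201542-96212510 in the files' build, mm9.

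The other assembly factors lay on the same side after scaling. All 7 had a negative scaled difference between perigonadal WAT and BAT (median -0.61, beside 0.02 for all genes), and 4 of the 7, Psmg1, Psmg2, Psmg4 and Psmd9, did not overlap, against 19.6% of all genes in the same direction. On the deposited values 4 of the 7 were negative (median -0.24, beside 0.52), and none of the other 6 passed in either form. Psmg2, the partner of Psmg1, had 6.43 and 2.90 FPKM against 9.24, 5.72 and 3.51 in BAT, with overlap before scaling. Psmg3, which with Psmg4 forms a further chaperone of the alpha ring, had 1.30 and 1.68 FPKM against 2.77, 1.27 and 1.94, with overlap, and Psmg4 had 4.55 and 5.14 against 9.70, 4.67 and 7.15, also with overlap.

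A measure within each library avoids the scaling. The 7 assembly factors summed to 3.84, 3.94 and 2.66% of the summed FPKM of the 31 constitutive core and regulatory genes in inguinal WAT, to 2.94 and 2.91% in perigonadal WAT and to 4.74, 4.38 and 4.00% in BAT. The highest WAT library, at 3.94%, lay just below the lowest BAT library, at 4.00%, on this measure, which was chosen after the values were seen and is not tested. Psmg1 alone came to 1.20, 1.02 and 0.595%, to 0.613 and 0.528% and to 0.948, 1.24 and 1.13%, so the perigonadal libraries lay below BAT and the inguinal libraries overlapped both. These are genes of few fragments, 527 for all 7 over all 8 libraries.

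**Figure D3:**
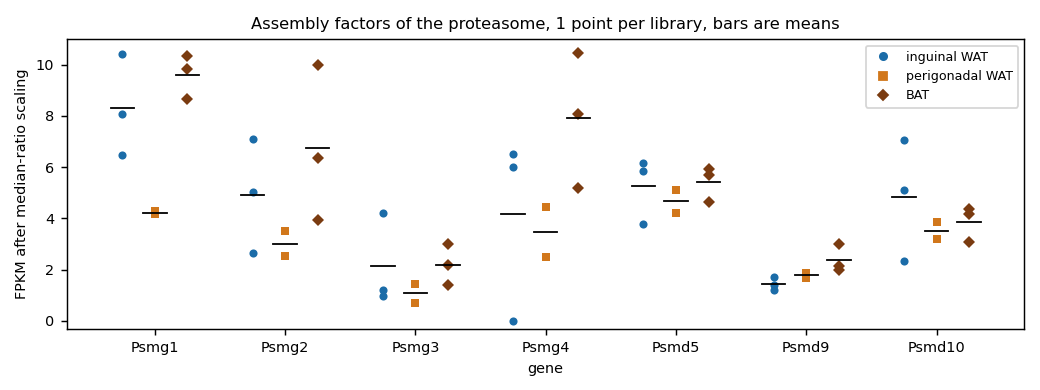
Level of the 7 assembly factors in FPKM after median-ratio scaling (vertical axis) by gene (horizontal axis), with 1 point per library and a bar at each depot's mean. Both perigonadal points of Psmg1, at 4.16 and 4.28, lie below its BAT points, at 8.64 to 10.4, while the points of most other factors spread widely.

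The core and regulatory genes with the prefix did not pass in perigonadal WAT on the deposited or the median-ratio scaled values. After scaling, the 14 constitutive core genes had a median log2 difference of -0.29 from BAT and the 17 regulatory genes one of -0.07, with 0 called in each. The lowest core values were those of Psma7 (-0.79, adjusted p = 0.156), Psmb3 (-0.67, adjusted p = 0.206) and Psma4 (-0.55, adjusted p = 0.195, all limma), and each of these changed to between -0.13 and 0.11 on the deposited values. The scaled 95% intervals lay within a 2-fold change for 11 of the 14 and 14 of the 17. As deposited, the intervals did so for only 1 of the 14 and 1 of the 17. On the deposited values the highest were Psma1 (0.92, adjusted p = 0.193), Psmd11, a lid subunit (0.86, adjusted p = 0.256), and Psme4 (0.83, adjusted p = 0.274). Psmd11 had 23.5 and 16.2 FPKM in perigonadal WAT and 8.06, 12.5 and 10.7 in BAT, without overlap. Perigonadal libraries lay above BAT in this way for 48.3% of all tested genes, and after scaling Psmd11 overlapped. Without inguinal replicate 3, which has the fewest fragments and takes part in the shared estimate of spread, 4 of 46 members were called higher on the deposited values, Psma1, Psmb5, Psmd11 and Psmd4, against 13.9% of all genes in that fit, a larger share than that of the members. In a fit of only these 2 groups 1 member, Psma1, was called higher, against 5.99% of all genes.

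Inguinal and perigonadal WAT did not differ in any member by the test. With limma, 0 of 46 were called on the deposited values, against 0.703% of all genes, with 1 (Psme4, lower) at an unadjusted p under 0.05, against 12.4%. After scaling, 0 of 46 were called, against 0.313%, with 3 at an unadjusted p under 0.05, against 7.58%. The median log2 difference was -0.42 as deposited, beside -0.50 for all genes, and 0.23 after scaling, beside -0.01. With scaling 36 of the 46 changed sign. Without overlap, 12 members were higher and 1 lower in inguinal WAT after scaling (12.1% and 11.4% of all genes), and 0 higher and 10 lower as deposited (1.44% and 27.5%). Psmg1 had the largest scaled difference, 0.81 (adjusted p = 0.263), and the perigonadal libraries are shared with the comparison above.

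**Figure D4:**
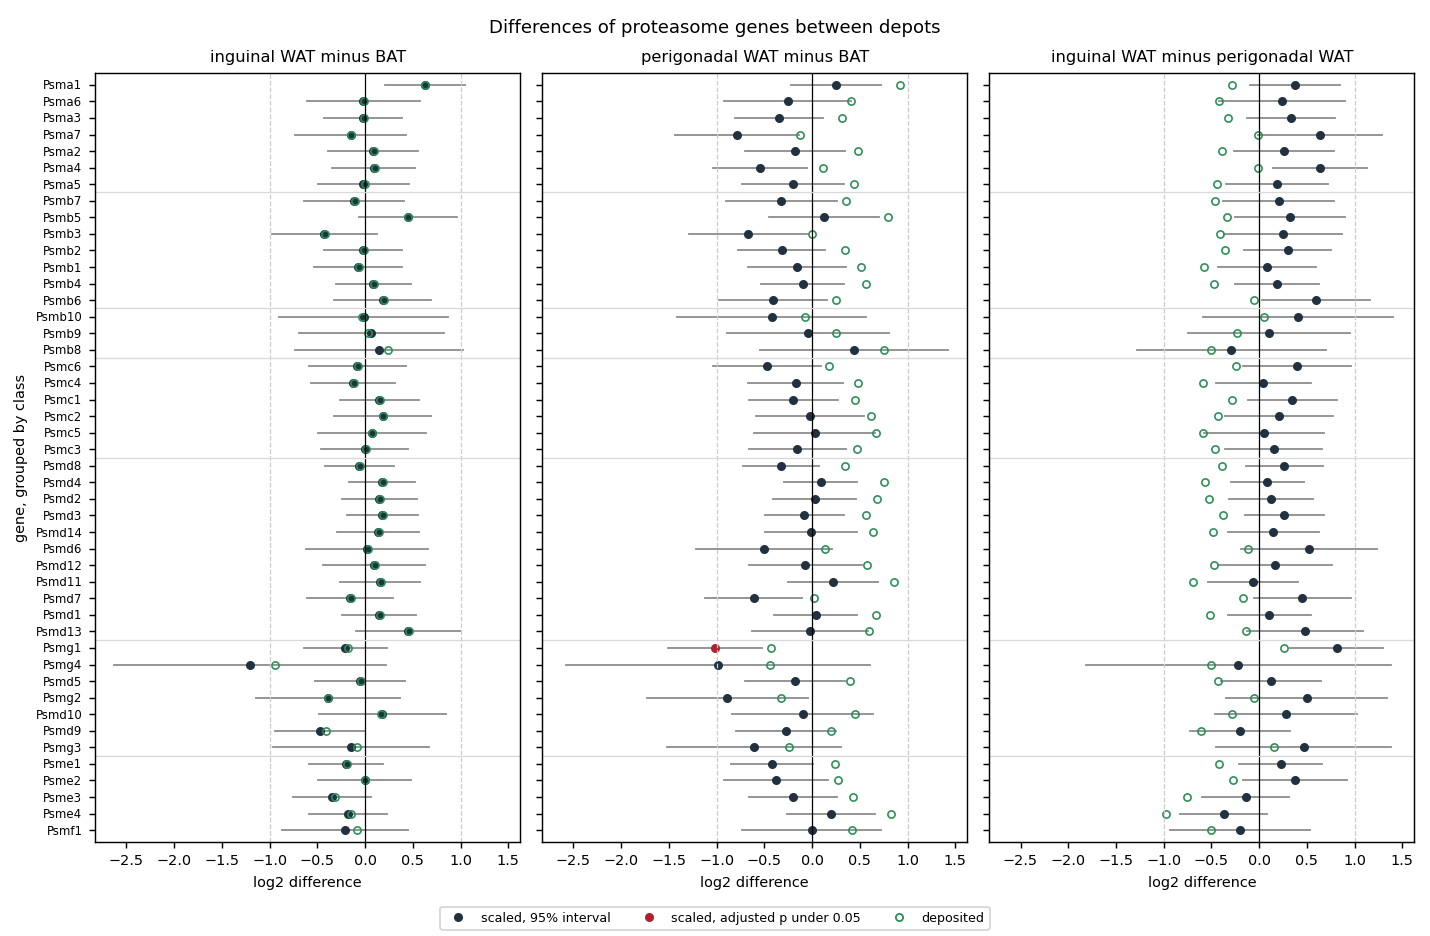
Log2 difference (horizontal axis) of each tested proteasome gene (vertical axis, by class) for the 3 comparisons of depots, with filled points and 95% intervals after median-ratio scaling, open points for the deposited values and dashed lines at a 2-fold change. Between inguinal WAT and BAT open and filled points mostly lie close together, with Psmg4 apart at -0.94 and -1.20, and 2 of 46 differ in sign. In the comparisons with perigonadal WAT, 30 and 36 of 46 differ in sign, and against BAT the filled point of Psmg1 is the 1 past the threshold.

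None of the 5 activators and inhibitors passed in any comparison, on either scale. Psme1, a subunit of the interferon-inducible activator PA28 alpha-beta, had 34.6, 27.2 and 15.6 FPKM in inguinal WAT, 39.6 and 27.9 in perigonadal WAT and 33.6, 28.1 and 23.3 in BAT. Psme2, its partner, had 29.9, 27.2 and 15.1, then 35.9 and 22.0, then 33.8, 17.5 and 20.6 FPKM in the same order. Groups overlapped for both genes as deposited. After scaling, both perigonadal libraries of Psme1, at 21.6 and 24.2, lay below the BAT libraries, at 36.3, 31.2 and 26.2 (log2 difference -0.42, adjusted p = 0.258, limma). As deposited, the interferon-inducible activator was read at 15.1 to 39.6 FPKM in libraries where the inducible catalytic subunits were at 0 to 2.75 FPKM. Cufflinks divided Psme2 between 2 transcripts of 797 and 897 nt, of which the shorter took 0.352 to 85.7% in the BAT libraries, so the split is unstable and the sum is given, and Psme2 has a close copy, Psme2b, that could share its reads.

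Psme3, the nuclear activator PA28 gamma, had 11.5, 12.4 and 4.71 FPKM in inguinal WAT, 17.1 and 14.2 in perigonadal WAT and 10.9, 10.4 and 12.7 in BAT. Psme4, the activator PA200, had 11.4, 8.75 and 3.76, then 17.7 and 13.3, then 9.59, 7.81 and 7.44 FPKM. Both perigonadal libraries lay above all others for each gene as deposited, but the scaled differences from BAT were -0.20 for Psme3 and 0.20 for Psme4, and none passed (adjusted p = 0.654 and 0.66, limma). Psmf1, the inhibitor PI31, was low, at 0.173 to 2.44 FPKM over the 8 libraries.

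Both tissue-specific forms were low. Psma8, the alpha subunit of the testis, was listed at 0 in 7 libraries and at 0.463 FPKM in BAT replicate 2. Psmb11, the catalytic subunit of the thymus, reached 1.17 and 0.392 FPKM in perigonadal WAT, on an estimated 10.8 and 2.3 fragments, and at most 0.156 elsewhere. Psmc3ip had 0 FPKM in 4 libraries and at most 1.02 in BAT.

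Genes of the pathway outside the prefix did not pass on the deposited values either. Of 34 tested, 0 were called in any of the 3 comparisons (limma). The order below is inguinal WAT against BAT, perigonadal WAT against BAT, and inguinal against perigonadal WAT. Of all tested genes, 2.2, 5.18 and 0.703% were called in either direction. The median log2 differences were 0.07, 0.57 and -0.60, beside 0.03, 0.52 and -0.50 for all tested genes. Nfe2l1, the transcription factor of proteasome genes, had 35.6, 41.4 and 18.8 FPKM in inguinal WAT, 62.3 and 43.2 in perigonadal WAT and 32.7, 37.1 and 35.4 in BAT. Its scaled difference from BAT was -0.21 in inguinal and -0.11 in perigonadal WAT (adjusted p = 0.513 and 0.788). Nfe2l2, its relative in oxidative stress, ranged from 6.00 to 14.1 FPKM, the core chaperone Pomp from 23.0 to 53.4 and the ubiquitin receptor Adrm1 from 14.3 to 28.4.

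After scaling, Rps27a and Shfm1 were lower in perigonadal WAT than in BAT, a comparison in which 3.49% of all tested genes were called lower. Rps27a, which codes for ubiquitin fused to a ribosomal protein, had 51.4 and 27.5 FPKM in perigonadal WAT and 53.6, 42.1 and 44.6 in BAT, with overlap as deposited and none after scaling (log2 difference -0.96, adjusted p = 0.0156, limma). Shfm1, a small subunit of the lid, had 49.9 and 45.5 FPKM against 72.8, 61.5 and 57.5, without overlap (scaled log2 difference -1.08, adjusted p = 0.0153, limma). The polyubiquitin gene Ubb (42.9 to 165 FPKM over the 8 libraries) had a scaled perigonadal difference of 0.33, which did not pass (adjusted p = 0.377). Ubiquitin and ribosomal protein genes have near-identical copies, so how fragments were divided between them is uncertain.

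Replicate libraries of a depot spread somewhat more in the members than counting alone gives. Over the 30 core and regulatory genes with 1 transcript, the dispersion index, the variance of fragments over that expected from counting alone, had a median of 1.11 in inguinal WAT, 1.07 in perigonadal WAT and 1.24 in BAT, beside 1.45, 1.83 and 1.24 for 1917 other genes. Counting alone would give a median of 0.693 with 3 libraries and 0.455 with 2. The upper quartile of the members was 2.02, 5.51 and 2.18 in the same order, highest in the 2 perigonadal libraries.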

How the data were processed

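Ribosome-bound RNA of UCP1-positive cells was sequenced in 8 libraries, which were grouped by the tissue label. The submitters' processing notes name TopHat, Cufflinks and the build mm9, without versions or options. The deposited transcript tables list FPKM with confidence bounds, computed by the authors for each library, for 28702 transcripts of 22552 genes, and hold no counts. Fragment numbers were estimated here from each FPKM and its upper bound, and 84.4 to 93.3% of the low values in a library were whole to within 0.05. Values were summed per gene.

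Kept were the 8958 genes that reached 1 FPKM in 2 or more libraries and had a transcript of 300 nt or longer, so that a gene can pass through 1 depot alone. They were tested as log2(FPKM + 1) with limma 3.58.1 in R 4.3.3, with a variance trend, all 8 libraries in 1 model of 3 groups, two-sided, and Benjamini-Hochberg adjustment over all tested genes at 0.05. On this scale, changes of genes with low values come out too small. Median-ratio scaling of FPKM between libraries was one of the alternatives, beside pseudocounts of 0.1 and 5, other filters, quantile normalization, a replicate block and each library left out. The fit was tested on simulated data.

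The members and lists were chosen with earlier results of these data known. Named were the catalytic, inducible, activator and assembly genes, tissue-specific forms, any called member, the 2 highest and 2 lowest of each structural class, and the 3 largest differences in each direction per comparison. Promoters came from RefSeq on GRCm38.p6, and all gene coordinates otherwise are in mm9. Python 3.11.15 was used for summaries. Poisson intervals and 3-fragment floors cover counting error only. Some results for pathway genes outside the prefix are not reported here.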

Additional observations from a re-analysis of the deposited data

How the results depend on the processing

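Against the deposited values, scaling changed the most signs, and leaving out inguinal replicate 3 added the most calls. Members called between inguinal WAT and BAT went from 0 to 1 under quantile normalization (Psma1, 0.74, adjusted p = 0.0372). Between perigonadal WAT and BAT they went from 0 to 1 under median-ratio scaling, quantile normalization (Psmg1 in both, -1.02 and -0.97, adjusted p = 0.0241 and 0.0327) and a fit of only the 2 groups (Psma1, 0.92, adjusted p = 0.0456). The members' median log2 difference there went from 0.42 to -0.19 with median-ratio scaling and -0.061 with quantile normalization, and between inguinal and perigonadal WAT from -0.42 to 0.23 and 0.11. Leaving out 1 library gave 0 to 4 calls between perigonadal WAT and BAT, the 4 without inguinal replicate 3 (adjusted p from 0.0155 to 0.0473, against 13.9% of all genes called higher there), and 0 in the other comparisons; after scaling it gave 0 to 1 there, with medians of -0.30 to -0.07, and 0 in the others. The scaled repeats were chosen after seeing the data. For the named members, 1475 of the values under the alternatives to the deposited values kept sign and side of the threshold, 161 changed sign without a call, 8 passed only under the alternative and 0 reversed a call. Whether the replicate numbers pair the libraries is not settled. Between inguinal WAT and BAT, deviations from the depot mean correlated at 0.116, 0.064 and 0.055 for same-numbered libraries. For differently numbered ones there the correlations were -0.057 to -0.008. Same-numbered pairs with a perigonadal library gave -0.097 to 0.027. With the replicate block, 0 members were called in each comparison, and the perigonadal median was 0.28; with the block and scaling together, Psmg1 alone was called (adjusted p = 0.0426). The cause of these changes was not tested. Depth limits the inducible, assembly and tissue-specific genes most.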
